A study of Mus musculus with 24 samples.

Results

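The regions described here are stretches of open chromatin that were called in every library of a mouse hindlimb muscle study and that lie far from annotated genes. Peaks of all 24 libraries on chromosomes 1 to 19, X and Y were merged into 930761 regions, and 18301 of these held a peak in all 24 libraries. A region was called distal when it lay more than 10 kb from the start and the end of every RefSeq gene (mm10), either inside a gene or between genes. The rule gave 3680 distal constitutive regions, which is 20.1% of the 18301. They are set beside the 11198 constitutive regions within 1 kb of a gene start or end, called gene-end regions. The other 3423 constitutive regions lay in between. The regions were thus chosen by the peak calls and by distance. The number of libraries that called them is a description and not a finding.

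ATAC-seq was used to map open chromatin. It relies on a transposase, Tn5, that cuts accessible DNA and leaves sequencing adapters there. All mice were male FVB/NJ mice with no engineered allele and no treatment named. Soleus and vastus intermedius, which hold more slow fibres, and gastrocnemius and vastus lateralis, which hold more fast fibres, were taken from 3 adult animals and 3 litters of late embryos (E18.5). Each animal or litter gave 1 library per muscle, so the 8 groups of stage and muscle held 3 libraries each. An E18.5 sample pooled the muscles of up to 5 male embryos of a litter. The design text dates the adults to postnatal day 56, and the growth protocol gives 3 to 4 months. Nuclei came from undigested tissue, so that fibres, connective tissue, vessels and blood cells could all contribute.

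Distal open regions in mammals are mostly enhancers, insulators bound by CTCF, or promoters of transcripts that begin inside a gene or outside the annotation. Promoters of widely used genes often lie in CpG islands, stretches rich in the dinucleotide CG that stay unmethylated and accessible in most tissues. Enhancers are on the whole more tissue-restricted than promoters. In muscle, long genes such as Mef2c, Runx1 and Hdac4 use several starts, so that a transcript can begin far inside the gene body.

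The 24 lists held between 115333 and 228137 peaks each, with 115333 to 219114 in the adult and 120387 to 228137 at E18.5. The files gave the start and end of each peak and no score, read count or signal, so the sequencing depth behind a peak is unknown. The measure used throughout is the covered width, which is the number of bases of a region that lie in the peaks of a library. It is not an amount of accessibility, and a missing peak does not show closed chromatin. The muscle markers Acta1, Ckm, Des, Mylpf and Myod1 had a peak within 1 kb of a gene end in all 24 libraries, and Ttn and Tnnc2 had one in 23 and Neb in 5. Of the erythroid genes, Gata1 and Alas2 had none in any library, Hba-a1 had one in 21 and Klf1 in all 24. Of the tendon genes, Tnmd had none in any library, Fmod had one in 23 and Scx and Mkx in all 24. The liver gene Alb had a peak in 2 libraries, but the liver gene Apoa2 had one in all 24.

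A subset of the distal constitutive regions held an alternative gene start, and 8 of these starts are printed to show what such a region contains. Of the 3680 regions, 230 (6.25%) held 263 starts of 224 genes from the RefSeq promoter table (GRCm38.p6), which gives 250 bases before and 50 after each start. The 6 from fixed gene lists are Runx1, a transcription factor; Hdac4, a class IIa histone deacetylase that represses Mef2 proteins; Fhl2, a LIM protein of heart and slow muscle; Arntl, the clock activator also called Bmal1; Mef2c, a muscle transcription factor; and Nfix, a regulator of the foetal muscle program. Fgf12, which encodes an intracellular partner of sodium channels, and Speg, a protein kinase of striated muscle, were chosen after their stage differences were seen. The 300 bases run 5′ to 3′ on the strand of the gene, and capitals mark each CG. The Runx1 entry lies at chr16:92697280-92697579, Hdac4 at chr1:92180292-92180591, Fhl2 at chr1:43163912-43164211, Arntl at chr7:113207215-113207514, Mef2c at chr13:83523406-83523705, Nfix at chr8:84775779-84776078, Fgf12 at chr16:28446026-28446325 and Speg at chr1:75399835-75400134. Arntl, Mef2c and Speg lie on the plus strand and the others on the minus strand. All 8 lie inside their gene, with the start site between 15361 and 153860 bp from the nearest gene end.
Runx1: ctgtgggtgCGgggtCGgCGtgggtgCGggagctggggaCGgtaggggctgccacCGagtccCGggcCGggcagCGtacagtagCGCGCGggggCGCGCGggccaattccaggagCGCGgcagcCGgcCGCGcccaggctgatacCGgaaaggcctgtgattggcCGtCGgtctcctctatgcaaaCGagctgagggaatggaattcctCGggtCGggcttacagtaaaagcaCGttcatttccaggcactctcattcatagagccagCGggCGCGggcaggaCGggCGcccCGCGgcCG
Hdac4: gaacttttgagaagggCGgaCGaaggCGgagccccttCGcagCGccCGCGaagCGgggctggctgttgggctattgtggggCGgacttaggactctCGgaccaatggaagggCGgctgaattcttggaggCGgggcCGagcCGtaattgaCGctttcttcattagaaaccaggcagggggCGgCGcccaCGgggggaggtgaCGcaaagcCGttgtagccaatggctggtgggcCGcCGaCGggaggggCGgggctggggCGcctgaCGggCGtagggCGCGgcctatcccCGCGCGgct
Fhl2: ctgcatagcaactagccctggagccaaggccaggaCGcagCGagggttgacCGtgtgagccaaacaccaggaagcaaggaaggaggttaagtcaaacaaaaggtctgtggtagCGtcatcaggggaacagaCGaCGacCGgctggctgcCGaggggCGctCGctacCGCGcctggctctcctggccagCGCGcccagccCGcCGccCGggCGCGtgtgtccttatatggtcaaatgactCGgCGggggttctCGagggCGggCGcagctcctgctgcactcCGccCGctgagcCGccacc
Arntl: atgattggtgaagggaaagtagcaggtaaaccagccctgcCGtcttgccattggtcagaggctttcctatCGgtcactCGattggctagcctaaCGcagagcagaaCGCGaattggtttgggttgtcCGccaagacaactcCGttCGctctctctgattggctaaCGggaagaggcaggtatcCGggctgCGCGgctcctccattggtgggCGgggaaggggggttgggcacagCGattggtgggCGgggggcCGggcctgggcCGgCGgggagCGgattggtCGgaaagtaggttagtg
Mef2c: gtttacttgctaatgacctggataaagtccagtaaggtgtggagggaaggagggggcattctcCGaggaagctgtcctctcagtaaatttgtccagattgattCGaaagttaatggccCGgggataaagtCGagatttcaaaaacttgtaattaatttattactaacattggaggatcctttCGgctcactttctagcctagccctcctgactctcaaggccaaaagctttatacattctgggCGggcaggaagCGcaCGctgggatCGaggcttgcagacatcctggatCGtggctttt
Nfix: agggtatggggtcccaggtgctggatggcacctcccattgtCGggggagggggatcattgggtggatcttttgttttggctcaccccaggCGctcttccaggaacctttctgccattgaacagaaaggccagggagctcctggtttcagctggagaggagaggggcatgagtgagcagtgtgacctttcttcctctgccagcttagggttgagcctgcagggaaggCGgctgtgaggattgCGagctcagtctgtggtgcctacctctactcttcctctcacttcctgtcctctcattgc
Fgf12: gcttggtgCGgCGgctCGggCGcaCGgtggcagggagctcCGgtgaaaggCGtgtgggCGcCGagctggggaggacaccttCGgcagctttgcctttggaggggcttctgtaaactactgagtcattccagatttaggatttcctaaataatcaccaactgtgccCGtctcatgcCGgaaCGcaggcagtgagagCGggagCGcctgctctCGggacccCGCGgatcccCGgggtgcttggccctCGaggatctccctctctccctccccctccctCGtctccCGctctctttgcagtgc
Speg: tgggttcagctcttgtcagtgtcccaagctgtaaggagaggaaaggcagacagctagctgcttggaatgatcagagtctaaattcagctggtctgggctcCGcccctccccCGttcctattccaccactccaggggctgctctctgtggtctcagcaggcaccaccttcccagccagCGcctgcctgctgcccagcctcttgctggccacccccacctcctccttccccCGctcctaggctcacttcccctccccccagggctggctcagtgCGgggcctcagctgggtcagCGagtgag

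The CG count separates these entries. Runx1 has 35, Hdac4 32, Fhl2 27, Fgf12 22 and Arntl 21, whereas Mef2c has 10, Speg 6 and Nfix 4. The median over all 32851 RefSeq starts of the table was 7. The Mef2c entry holds the letters TATAAA, searched on both strands, which 13.6% of all starts hold. Nfix is the only one of the 8 with AGNTGGC, a short core of the CTCF motif, which 20.5% of all starts hold. Fgf12 is the only one with TGANTCA, the AP-1 core, which 7.81% of all starts hold.

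Distal regions were far less often constitutive than gene-end regions. Of 236370 distal regions called in at least 2 libraries, 1.56% were called in all 24, against 18.6% of 60125 gene-end regions. Distal regions made up 52.7% of the regions called in 2 to 23 libraries and 20.1% of those called in all 24. Where they lay relative to genes was alike on both sides of that limit, since 58.1% of the distal constitutive regions (2139) and 56.6% of the distal regions called in 2 to 23 libraries were inside a gene. A further 2252 distal regions were called in 23 libraries. The libraries that most often missed such a region were adult soleus 2 (328 regions) and adult soleus 3 (279), and E18.5 gastrocnemius 1 missed the fewest (6).

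**Figure D1:**
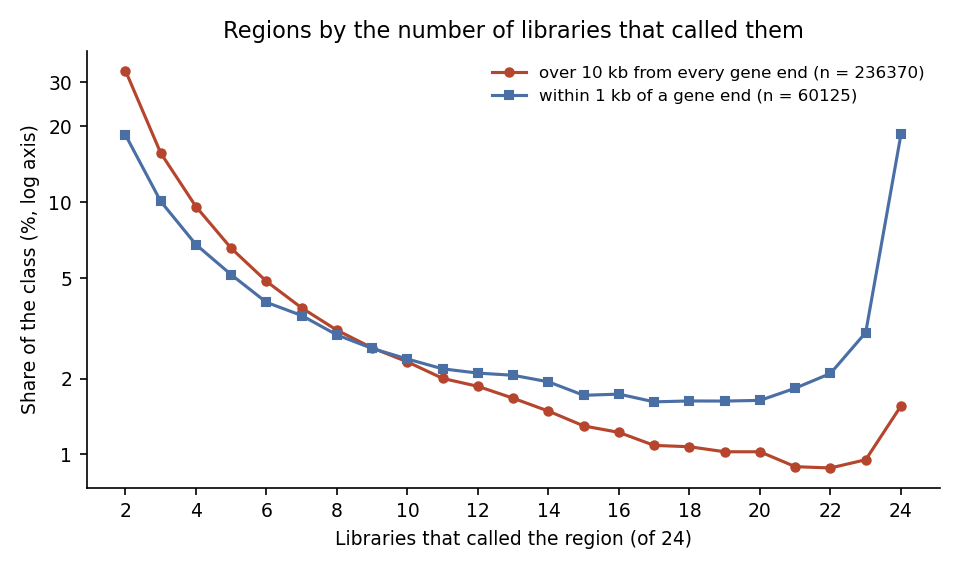
Share of each class of regions (%, log axis) by the number of libraries that called them, for regions called in at least 2 libraries; red circles are regions over 10 kb from every gene end and blue squares are regions within 1 kb of one. Both curves turn up at 24 libraries, to 1.56% and 18.6%.

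The 10 kb limit cut through a continuous range of distances. There were 223 constitutive regions between 9 and 10 kb from a gene end and 227 between 10 and 11 kb. Just outside the limit lay regions 9986 bp from Bend3, 9994 bp from Palmd and 9996 bp from Otud7a, with median covered widths of 505, 813 and 929.5 bp. Just inside lay regions 10002 bp from Gm39082, 10011 bp from A130010J15Rik and 10012 bp from Chd6, with 1044, 1032.5 and 910 bp.

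Distal constitutive regions were narrower than gene-end constitutive regions in every animal and litter. The median covered width was 991 bp for distal regions (interquartile range 795 to 1252 bp) and 1168.5 bp for gene-end regions. Distal regions inside genes had 1015 bp and those between genes 961.5 bp. The median distal width as a share of the median gene-end width was 84.6, 89.8 and 85.9% in the 3 adults and 82.9, 84.3 and 78.6% in the 3 litters. All 6 shares were below 100%. The log2 ratio was −0.25 ± 0.063 (SD, n = 6 animals or litters; two-sided exact sign-flip permutation test, p = 0.03125, the smallest that 6 values allow).

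The gap was seen in all 8 groups of stage and muscle. Among adult libraries the median distal width ran from 818 to 1016 bp with a median of 950.5 bp, and among E18.5 libraries from 899 to 1134.5 bp with a median of 1032 bp. These ranges overlapped. Gene-end widths ran from 920 to 1155 bp in the adult and from 1184 to 1286 bp at E18.5, with no overlap. Adult soleus had the narrowest distal regions, 868 ± 48.1 bp (SD, n = 3), and E18.5 soleus the widest, 1052 ± 74.3 bp. The log2 ratio of distal to gene-end width came to −0.21 ± 0.044 (SD, n = 3) for the adults and −0.29 ± 0.052 (SD, n = 3) for the litters. That difference of 0.08 gave p = 0.1 in a two-sided exact permutation test, the smallest that 3 against 3 allow.

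**Figure D2:**
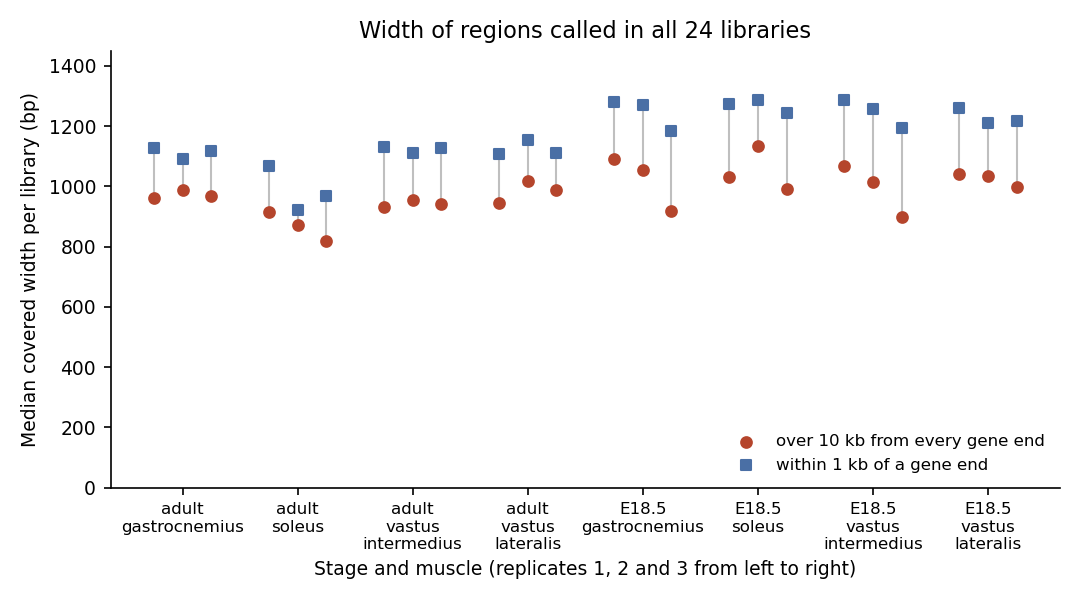
Median covered width (bp) of distal (red circles) and gene-end (blue squares) constitutive regions in each of the 24 libraries, with a grey line joining the values of a library. The distal value lies below the gene-end value in every library, with the smallest gap in the second adult soleus library.

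Peaks of different libraries also met less often at the same bases in distal regions. The merged regions were of like size, with medians of 1999 bp for distal and 1943 bp for gene-end regions. Yet only 65.0% of distal regions (2391) had any base covered in all 24 libraries, against 88.4% of gene-end regions. Where such bases existed, they spanned a median of 306 bp in distal and 571 bp in gene-end regions. A single peak per library in every library was found in 28.7% of distal regions (1056) and 45.8% of gene-end regions.

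Width varied more between libraries in distal regions. The highest covered width of a region over its lowest among the 24 libraries had a median of 3.52 in distal regions (interquartile range 2.51 to 5.01) and 2.36 in gene-end regions. Only 434 distal regions (11.8%) stayed within a 2-fold range, against 32.8% of gene-end regions. Among regions with 1 peak in every library the medians were 2.57 and 1.99. The 5 most variable distal regions were singled out after their values were seen, and 4 of them lay inside a gene. A region in Kalrn, which encodes a guanine nucleotide exchange factor, at chr16:34080494-34084545 ran from 193 to 2895 bp. Regions in Nav3, Galnt11 and Sik3 ranged 14.8-fold, 13.8-fold and 13.4-fold. The region between genes, at chr6:20697592-20702792, ran from 260 to 3535 bp, or 13.6-fold.

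A small set of distal regions showed almost no variation. The most constant, at chr14:19416888-19419298, ran from 2395 to 2410 bp over the 24 libraries, and the next, at chr19:61331278-61331566, from 286 to 289 bp. Both stood near the front of the authors' lists, which were not in genome order. The sources used here do not say what ordered the lists, and a region's place in a list is used only to describe it. All 24 lists opened with the region chr2:98666260-98667491, which lies between genes and was 1051 to 1228 bp wide. In all, 51 distal regions had a median place in the first 200, and 49 of them stayed within a 2-fold range. Their median covered width was 497 bp, and 33 were under 600 bp wide. Of all distal regions, 24 began within 100 kb of position 3000000, close to where the assembled sequence of mouse chromosomes starts, and 10 of these were among the 51. By comparison, 38 gene-end regions stood in the first 200 places, with a median width of 1144 bp and 4 under 600 bp.

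Away from that front, distal regions stood later in the lists than gene-end regions. The median place over all 24 lists was 19641 for distal regions, or 12.2% of the way down a list, and 7504.5 for gene-end regions, or 4.58%. Of the distal regions, 1882 (51.1%) had a median place in the first 20000, against 87.2% of gene-end regions. Without the 51 front regions the distal median width was 994 bp.

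**Figure D3:**
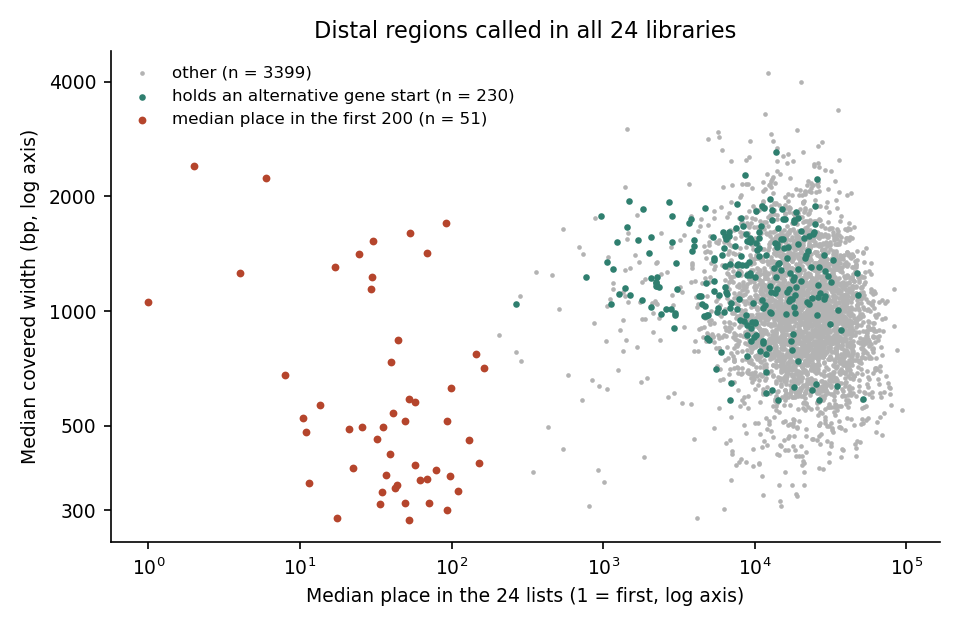
Median covered width (bp, log axis) of the 3680 distal constitutive regions against their median place in the 24 lists (log axis). The 51 regions of the first 200 places (red) stand apart and are mostly narrow, and the 230 regions that hold an alternative gene start (green) lie toward the front of the main cloud.

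The widest and narrowest regions were found in unlike places. The widest lay on chromosome Y at chrY:7025918-7031904, with a median of 4209.5 bp and a range of 2363 to 5217 bp. The next was in a, the agouti gene of coat colour, at chr2:155020116-155026062 with 4001 bp. A region of 3376.5 bp at chr11:106943597-106949840 and one of 3288.5 bp in Gm16090 near the desmosome gene Dsg2 followed. The other 6 of the widest 10 had medians of 2834.5 to 2999 bp, and they included a region in Bcor, which encodes a corepressor (2991.5 bp), and one in Nr3c1, the glucocorticoid receptor gene (2858.5 bp). The Nr3c1 region at chr18:39488823-39491937 was also steady, between 2631 and 2981 bp in the 24 libraries. The narrowest 5 had medians of 283 to 302 bp. They lay in Sos2, a Ras exchange factor gene, at chr12:69654052-69654342, in Gm52725, in D130009I18Rik, and between genes on chromosomes 19 and 13.

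Most distal regions lay within 50 kb of a gene end. The median distance was 24.2 kb, 819 regions (22.3%) lay over 50 kb away, 266 over 100 kb and 2 over 500 kb. Those 2 were neighbours on chromosome 15. The region chr15:15099659-15101770 lay 632990 bp from Gm9630 and chr15:15088245-15092225 lay 621576 bp from it, with median widths of 861 and 1698.5 bp. The other 3 of the farthest 5 were at chr3:44246911-44247834, 477330 bp from Gm18866, at chr6:11450394-11453308, 447064 bp from Ndufa4, and at chr14:91970987-91971582, 396918 bp from Gm24127. Their median widths were 488, 773.5 and 452.5 bp, all below the distal median.

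Distal regions stood slightly farther from other constitutive regions than gene-end regions did, and much farther from their own kind. The median distance to the nearest other constitutive region was 28.3 kb for distal and 22.8 kb for gene-end regions. To the nearest region of the same class it was 104 kb and 34.1 kb. The distal class is the smaller, with 3680 regions against 11198, and the distance rule keeps its members away from gene-end regions. Both spacings carry these counts and this rule, and whether they differ beyond that was not tested. Another constitutive region lay within 50 kb of 64.2% of distal and 73.2% of gene-end regions. Of the distal regions, 2264 had no other distal region within 50 kb. The other 1416 (38.5%) formed 533 chains, and 35 chains of at least 5 regions held 256 of them.

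The largest chain held 41 distal regions in 174 kb at chr6:114455901-114629716, a stretch that includes part of Hrh1, the histamine H1 receptor gene. Their median covered widths ran from 308.5 to 2192.5 bp, and 1 of the 41 held a gene start. The next 2 chains were both on chromosome Y, with 14 regions each, at chrY:6416040-6594191 and chrY:6678310-6822295. A chain of 10 at chr9:3000007-3077306 had regions near the front of the lists, with a median place of 34.5. Chains that lay in a single protein-coding gene were shorter. Tns1, which encodes the focal adhesion protein tensin, and Cuedc1 held chains of 7, in 76.2 and 64.9 kb.

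Chromosome Y stood out by its count of distal against gene-end regions. It had 61 distal and 9 gene-end constitutive regions, and all 61 were between genes. On the other chromosomes gene-end regions outnumbered distal ones, with 32.9 distal per 100 gene-end regions over the genome. The lowest ratio was on chromosome 19 (74 and 379 regions, 19.5 per 100) and the highest autosomal one on chromosome 18 (155 and 282, 55.0 per 100). Chromosome X had 95 distal and 207 gene-end regions. Of the distal X regions called in at least 2 libraries 2.83% were constitutive, the highest share of any chromosome, against 1.56% in all. Gene-end regions also had their highest share on chromosome X, 27.5% against 18.6% in all.

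Regions with an alternative gene start were the part of the distal set most like gene-end regions. A start lay in 6.25% of all distal constitutive regions, which is 10.8% of those inside genes. The share was 0.211% of all distal regions called in 2 to 23 libraries and 71.4% of gene-end constitutive regions. The 230 with a start had a median covered width of 1213 bp, against 991 bp for the others inside genes and 1183 bp for gene-end regions with a start. Their median place was 9991, against 19829.5 for the others inside genes. Width also varied less, with a median highest-to-lowest ratio of 2.60, against 3.60 for distal regions without a start.

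Internal starts in regions called by more libraries held more CG. RefSeq held 1385 starts more than 10 kb from every gene start and end, and 287 of them (20.7%) lay in a region called in all 24 libraries. A further 643 lay in a region called in 1 to 23 libraries and 455 in none. The 300 bases around the start held a median of 20 CG in the first set, 5 in the second and 3 in the third. Starts in gene-end constitutive regions had a median of 23. At least 15 CG were found in 66.9% of the starts in regions called in all 24. The share was 8.24% for starts in regions called in 1 to 23 and 0.440% for starts in none. The letters TATAAA went the other way, in 4.53, 10.6 and 25.5%. AGNTGGC was in 20.2, 25.7 and 13.2% and TGANTCA in 6.27, 9.80 and 8.35%, both on either strand, with no steady order. Motif matches are descriptions of these windows and not of binding.

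**Figure D4:**
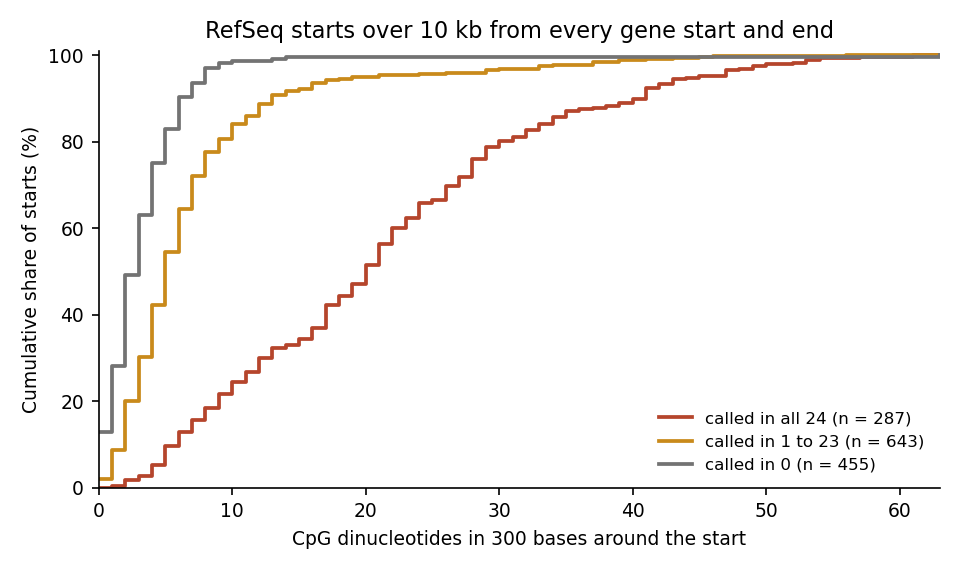
Cumulative share (%) of the 1385 RefSeq starts over 10 kb from every gene start and end against the number of CG dinucleotides in the 300 bases around them, by whether the start lay in a region called in all 24 libraries (red), in 1 to 23 (yellow) or in none (grey). The medians are 20, 5 and 3.

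For many of these genes the internal start lay in a constitutive region while neither outer end had one within 1 kb. Of 221 protein-coding genes with a start in a distal constitutive region inside them, 111 (50.2%) had no constitutive region within 1 kb of either gene end. Among the other 1114 protein-coding genes that held a distal constitutive region the share was 34.3%. In genes over 100 kb the shares were 57.3% (67 of 117) and 37.1% (247 of 665). Of genes of that length without a distal constitutive region, 52.6% (866 of 1647) had a constitutive region near an end. Of the 9 listed genes with such a start, Arntl, Fhl2, Hdac4, Mef2c and Runx1 had no constitutive gene end. Foxp1, Kdm2b, Nfatc2 and Nfix had 1 each. A start inside a constitutive region need not itself be covered in every library. The start sites of Arntl, Fhl2, Hdac4, Kdm2b and Runx1 lay in bases covered in all 24 libraries. Those of Foxp1, Mef2c, Nfatc2 and Nfix did not.

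At the Runx1, Arntl and Mef2c starts the widths of both stages overlapped. The Runx1 start region chr16:92696625-92699268 was 1656 to 2474 bp wide in the adult libraries (median 2205 bp) and 2136 to 2610 bp at E18.5 (median 2326.5 bp). The Arntl region ran from 1480 to 1944 bp (median 1699 bp) and from 1482 to 1859 bp (median 1596.5 bp). For Mef2c the ranges were 1347 to 2652 bp (median 1710 bp) and 1419 to 1941 bp (median 1643 bp). None of the 3 regions passed the limma test between stages that was run on all constitutive regions (limma adjusted p = 0.525, 0.0759 and 0.113).

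Distal constitutive regions inside genes were spread over 1493 host genes, of which 1335 were protein-coding. These protein-coding hosts had a median length of 118 kb, against 17.2 kb for all 21887 protein-coding genes. The rule itself shuts out short genes, since a host must hold a region more than 10 kb from both of its ends. Among protein-coding genes over 100 kb the medians were 207 kb for hosts and 172 kb for all 2429. Most hosts (1094) held 1 region, 365 held 2 to 4 and 34 held 5 or more. Gse1 held 12, the most. Arhgap26, a GTPase-activating protein gene, and Tns1 held 9 each. Cuedc1 and Nav1 held 7. A tie at 6 comprised Ablim1, Akap6, Auts2, Dab2ip, Frmd4a, Gm38510, Maml3 and Pde4d, so that the rule named more than 10 genes. Akap6 encodes an anchor for protein kinase A at the nuclear envelope of muscle cells, Maml3 a Notch coactivator and Pde4d a cAMP phosphodiesterase.

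Number and density gave different orders. Cuedc1 had 7.37 distal constitutive regions per 100 kb and Gse1 3.40, whereas Auts2 had 0.543 and Pde4d 0.461. Pde4d is 1302 kb long and held 236 distal regions called in at least 2 libraries, of which 6 were constitutive. Regions of the same host varied in width. Those of Gse1 had medians from 518 to 1685.5 bp and those of Tns1 from 699 to 2073 bp. A constitutive gene end was found in 59.8% of the protein-coding hosts over 100 kb (468 of 782) and in 52.6% of the protein-coding genes of that length without a distal constitutive region (866 of 1647).

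The 1541 regions between genes were nearest to 1199 protein-coding or lncRNA genes, and 1010 of these were nearest to a single region. Hrh1 and Atg7, both on chromosome 6, were nearest to 22 and 18. Gm20830 and Gm20873 were nearest to 21 and 15.

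The lists of fibre type regulators and of widely expressed regulators had the most genes linked to distal constitutive regions. A gene counted as linked when it held such a region or was the nearest protein-coding or lncRNA gene to one. Of all protein-coding genes 8.60% were linked. In the list of fibre type regulators 13 of 28 genes were linked, to 26 regions, with a median gene length of 102 kb. Among widely expressed transcription and chromatin regulators it was 13 of 26, to 29 regions, with a median length of 103 kb. The hosts are long genes and these lists hold long genes, and the part of gene length in the shares was not tested.

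Among the fibre type regulators Tead1, a Hippo pathway transcription factor gene, was linked to 5 regions. Sox6, a repressor of slow fibre genes, Mef2c, Nfatc2, a target of calcineurin, and Hdac4 had 3 each. Nfix had 2. Tbx15, Nfatc1, Ppargc1a, Ppargc1b, Vgll2 and Hdac5 had 1. Ppargc1a, the gene of the coactivator PGC-1α, is 662 kb long and held 132 distal regions called in at least 2 libraries, of which 1 was constitutive. That region at chr5:51551786-51554334 was 1258 to 2503 bp wide in the adult (median 1932 bp) and 913 to 2229 bp at E18.5 (median 1761 bp), with overlapping ranges. The widely expressed list held Ets1 and Nfia with 4 regions each, Foxp1, Tcf4 and Zeb1 with 3, and Foxo1, Runx1, Nfix and Kdm2b with 2. Foxo3, Nfib and Tcf12 had 1.

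The other lists had fewer linked genes. Fhl2 was the only linked gene of 15 slow fibre genes, and Ryr1, the calcium release channel, the only one of 17 fast fibre genes. Des, the desmin gene, was the only one of 11 myogenic genes, Col1a2 of 16 matrix genes, Actb of 14 housekeeping genes and Ncam1 of 7 embryonic muscle genes. Lists of limb patterning (Prrx2, Lmx1b), the circadian clock (Arntl, Rora, Hlf), immediate early genes (Fos, Nr4a2, Klf4) and imprinted genes (Dlk1, Grb10, Igf2r) had 2 of 17, 3 of 16, 3 of 16 and 3 of 11. Of the cell type lists, endothelium had 3 of 5 (Pecam1, Cdh5, Kdr). Cspg4 of pericytes and Runx2 of bone were linked to 1 region each. No gene of the progenitor, tendon, immune, Schwann cell, adipocyte, erythroid, or liver and neuron lists was linked.

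Stage differences in width were sought over all 18301 constitutive regions with limma, on log2 covered width centred on the median of each library and averaged over the 4 muscles of an animal or litter. Of the 3680 distal regions 166 (4.51%) were wider in the adult at a Benjamini-Hochberg adjusted p under 0.05, beside 3.35% of all regions tested. At E18.5 107 (2.91%) were wider, beside 3.15% of all. Gene-end regions gave 2.70% and 3.16%. The share of distal regions wider at E18.5 is thus near the background, and the adult share is above it. The median difference was 1.67-fold in the first set and 1.64-fold in the second, with maxima of 3.26-fold and 3.06-fold. In bulk tissue, fewer cells of a type and less open chromatin per cell cannot be told apart.

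On simulated widths for this stage comparison, with 200 of 18301 regions changed, the fit recovered 100% at a 2-fold change, 93.5% at a 1.5-fold change and 8.5% at the smallest change simulated. Of the calls, 6.98%, 2.60% and 15% were false. Every simulated region had the same spread between animals and between libraries, whereas the real regions differed in spread. The SE of the stage difference was 0.080 for a region in Neurl1a and 0.32 for a region near Des. The latter was not called at a log2 difference of 0.94. The recovery thus does not hold for regions of larger spread than simulated.

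The counts of called regions moved with the scaling and with single litters. Before centring, adult widths were lower by a median of 0.18 on the log2 scale over all constitutive regions, and differences are given relative to that shift. Without centring 79 distal regions were wider in the adult and 319 at E18.5. Centring on distal regions gave 139 and 165, so that under both scalings more distal regions were wider at E18.5. The turn was not particular to distal regions. Without centring the median log2 difference was −0.12 over distal, −0.20 over gene-end and −0.18 over all constitutive regions. With centring on distal regions it was −0.002, −0.083 and −0.060. Both scalings move the log2 difference of every region by the same amount. The smallest called differences, 0.30 for the 166 and 0.34 for the 107, exceed that amount. That no called region changed direction was thus fixed in advance. Without centring 79 of the 166 and 107 of the 107 remained called, and with centring on distal regions 133 and 107. With litter 2 left out, 19 and 8 distal regions were called, the lowest counts of the 6 such fits. The shares of all regions called under these scalings and fits are not given here.

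Calls of cell type markers also differed between stages, in either direction. Of 72 possible calls of 6 fibroblast markers in 12 libraries, 54 were made in the adult (3 to 6 markers a library) and 67 at E18.5 (5 to 6). Of 48 for 4 cartilage and bone markers, 29 were made in the adult (1 to 4) and 44 at E18.5 (3 to 4). Lum had a peak near a gene end in 1 adult and 7 E18.5 libraries and Runx2 in 1 and 8. The 8 muscle markers gave 88 and 83 of 96 calls, adipocyte markers 43 and 35 of 48 and endothelial markers 57 and 56 of 60. The other lists had somewhat more calls at E18.5, such as 36 and 38 of 60 for immune cells. Shares over all genes are not given here. The part of these cell types in the width differences was not tested.

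The 10 named regions wider in the adult were those with the largest log2 difference, and 9 of them lay inside a gene. Only those in Neurl1a and Pfkfb4 and those at chr18:25038587-25039976 and chr10:93374672-93377188 had any base covered in all 24 libraries. Of all distal regions 65.0% had such a base. In the other named regions, peaks of different libraries were joined without a base common to all. The largest difference was at chr16:95860380-95863349 in 1600002D24Rik, with animal means of 1681, 1494 and 1655 bp in the adult and 775, 523 and 482 bp at E18.5. That is a log2 difference of 1.70 ± 0.19 (SE; limma adjusted p = 0.00973). In Neurl1a, a ubiquitin ligase gene, the region chr19:47228333-47231313 had 2390.5, 2342 and 2346.5 bp in the adults and 801, 917.5 and 866 bp in the litters. All 12 adult libraries (1914 to 2673 bp, median 2348 bp) were above all 12 E18.5 libraries (616 to 1187 bp, median 901 bp). The difference of 1.66 ± 0.080 had the lowest adjusted p of any named region (0.00154).

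Pfkfb4, an enzyme gene that sets fructose 2,6-bisphosphate and so glycolysis, held a region at chr9:109007160-109011229 of 2373, 2500 and 2389 bp in the adults and 1008.5, 1338 and 1001 bp in the litters (log2 difference 1.37 ± 0.14, limma adjusted p = 0.00686). Its libraries did not overlap either, with 1708 to 3388 bp and 283 to 1651 bp. Fhod3, which encodes a formin needed for sarcomere assembly, held 2 such regions. At chr18:25038587-25039976 the adult libraries ran from 996 to 1354 bp (median 1135.5 bp) and the E18.5 libraries from 287 to 985 bp (median 510.5 bp), a log2 difference of 1.36. At chr18:24750263-24752512 the ranges of 554 to 1866 bp and 369 to 1273 bp overlapped, and the log2 difference was 1.35.

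The other 5 named regions wider in the adult lay in Pde4dip, which encodes myomegalin, a sarcomere and Golgi protein (1.49), in Mgll, the monoacylglycerol lipase gene (1.47), in Kif13a, a kinesin gene (1.43), between genes at chr10:93374672-93377188 (1.28) and in Ptprj, a receptor phosphatase gene (2.38-fold). With each animal or litter left out in turn, the regions in 1600002D24Rik, Neurl1a and Pfkfb4 stayed called in 6 of 6 fits. The 2 Fhod3 regions stayed called in 4 and 2, Pde4dip in 3, Mgll, Kif13a and the chromosome 10 region in 2 and Ptprj in 1. The adjusted p of the Ptprj region was 0.0643 without centring, and that of the chromosome 10 region was 0.0933 for the widest single peak of a library in place of all covered bases. Without litter 2 the Ptprj region gave an adjusted p of 0.124.

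Of the 10 named regions wider at E18.5, 8 lay inside a gene and 2 between genes. Only the region in Htra1 had any base covered in all 24 libraries, beside 65.0% of all distal regions. Tenm3 encodes a teneurin, an adhesion protein. Its region chr8:48481752-48483372 had animal means of 502.5, 426.5 and 429.5 bp in the adults and 1417, 1340.5 and 1224 bp in the litters (log2 difference −1.39 ± 0.12, limma adjusted p = 0.00644). Every adult library, at 316 to 592 bp, was below every E18.5 library, at 1068 to 1487 bp. In Htra1, a secreted serine protease gene, the region chr7:130964548-130967088 had 598.5, 677 and 693 bp in the adults and 1930, 1991 and 1672 bp in the litters (−1.35 ± 0.10, limma adjusted p = 0.00644). The libraries again did not overlap, with 434 to 929 bp and 1552 to 2356 bp. The largest difference was in Gm20755 at chr3:37934044-37937188, with 663.5, 534 and 474.5 bp against 1976, 1610.5 and 1779.5 bp (−1.61 ± 0.15, limma adjusted p = 0.00644).

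Adam12, a metalloprotease gene of forming and regenerating muscle, held a region at chr7:134113971-134116182 of 287 to 1453 bp in adult libraries (median 539.5 bp) and 1531 to 2004 bp at E18.5 (median 1811.5 bp), with a log2 difference of −1.39. The Fgf12 region at chr16:28444631-28447309 holds the Fgf12 start with 22 CG. It was 538 to 1448 bp wide in adult libraries (median 798.5 bp) and 1734 to 2515 bp at E18.5 (median 2152.5 bp), a log2 difference of −1.19 ± 0.12 (limma adjusted p = 0.00662). The Ltbp1 region at chr17:75177382-75179186, in the gene of a latent TGF-β binding protein, also held a start, with 7 CG, and gave −1.16 ± 0.18. The remaining 4 were in Gm11725 (−1.36), between genes at chr6:52417040-52419644 (−1.28) and chr6:51331487-51336053 (−1.24), and in Fbxl13 (−1.22).

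In fits with each animal or litter left out, the regions in Gm20755, Tenm3, Htra1, Fgf12 and at chr6:52417040-52419644 stayed called in 6 of 6. Adam12 stayed called in 5, Ltbp1 in 4, Gm11725 and chr6:51331487-51336053 in 1 and Fbxl13 in 0. Without litter 2 the adjusted p was 0.0538 for Adam12, 0.0759 for Ltbp1, 0.0930 for Gm11725, 0.106 for chr6:51331487-51336053 and 0.152 for Fbxl13. That last chromosome 6 region also gave 0.0720 for the widest single peak.

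**Figure D5:**
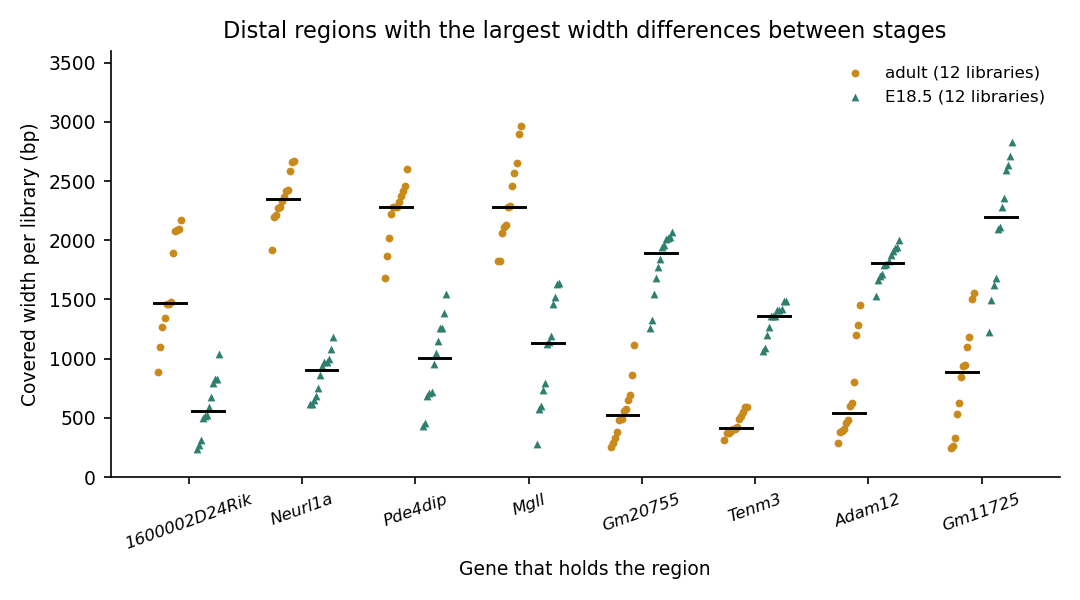
Covered width (bp) per library for the 4 distal constitutive regions inside genes with the largest difference in each direction, with 12 adult libraries (yellow circles) and 12 E18.5 libraries (green triangles) per region; black bars are medians. In all but the 1600002D24Rik and Gm11725 regions every library of the wider stage lies above every library of the other.

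Called regions were not evenly spread over the kinds of distal region described above. Inside genes lay 119 of the 166 regions wider in the adult (71.7%) and 74 of the 107 wider at E18.5 (69.2%), beside 58.1% of all distal regions. A gene start lay in 7 of the 166 (4.22%) and 18 of the 107 (16.8%), beside 6.25% of all. The median log2 stage difference was −0.05 over the 230 regions with a start and 0.07 over those without. None of the 61 chromosome Y regions, of the 41 in the largest chain or of the 51 front regions was called, and 1 of 95 on chromosome X was. Of all distal regions 4.51% were called wider in the adult and 2.91% at E18.5, beside 3.35% and 3.15% of all regions tested. At such shares, sets of this size would hold few calls, and the zeros are a description only. The front regions had a median difference of 0.18 after centring and 0.00 before it, which is the shift of the centring.

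The 25 called regions with a start are named here after their values were seen. Wider at E18.5 were those of Fgf12, Ltbp1, Syt2, Prkg1, Robo2, Sgip1, Cldn10, Nav1, Nhsl1, Dctd, Abcg2, Arap1, Shroom3, Ralgds, Olfm1, Pde2a, Nt5c2 and Pafah1b2. Wider in the adult were those of Abl1, Clic5, Ap1b1, Speg, Aff1, Medag and Lrrfip1. Robo2, a receptor of guidance signals, gave −0.82 and Syt2, a synaptotagmin, −0.89, and Speg gave 0.53 and Clic5, a chloride channel family member, 0.74. The CG count at the start did not part the sets, with 4 to 43 (median 19.5) for 26 starts in the first and 6 to 40 (median 20) for 9 in the second.

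Among the 81 regions linked to listed genes, 4 (4.94%) were wider in the adult and 4 (4.94%) at E18.5, beside 4.51% and 2.91% of all distal regions and 3.35% and 3.15% of all regions tested. Those wider in the adult lay in Tead1, Nfatc1 and Nfatc2, of the fibre type list, and in Rora, of the clock list. The Tead1 region chr7:112872166-112875070 had animal means of 1417, 1070 and 1190 bp in the adult and 933, 658 and 606.5 bp at E18.5 (log2 difference 1.09, limma adjusted p = 0.0236). The other 4 Tead1 regions gave 0.26, 0.39, −0.04 and −0.52, with adjusted p from 0.113 to 0.909. The region in Rora, a nuclear receptor gene of the clock, at chr9:69194370-69196852 had 1381.5, 1173.5 and 1260 bp in the adult and 860, 810 and 526 bp at E18.5 (1.02, limma adjusted p = 0.0236). Its other region gave −0.25 and was not called.

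Nfatc1 and Nfatc2 encode transcription factors activated by calcineurin in slow fibres. The Nfatc1 region chr18:80654089-80658315 had 1514, 1592.5 and 1814 bp in the adult and 1070, 1027.5 and 1174 bp at E18.5, a log2 difference of 0.79 (limma adjusted p = 0.0120). For its widest single peak the difference was 0.25 (limma adjusted p = 0.397). Of the 3 Nfatc2 regions chr2:168517238-168520334 was called, with 0.46 (limma adjusted p = 0.0220), and the widest single peak gave −0.21, the only change of direction among the 273 called distal regions under the 3 other scalings and this measure.

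Those wider at E18.5 were linked to Dlk1, Lmx1b, Col1a2 and Ncam1. The region nearest Dlk1, an imprinted gene of foetal growth, at chr12:109410830-109414178 had 1305, 839 and 1126 bp in the adult and 2358, 2259.5 and 1892.5 bp at E18.5 (−0.93, limma adjusted p = 0.0361). The Lmx1b region, in a gene of dorsal limb patterning, gave −0.80 (limma adjusted p = 0.0176). Its widest single peak gave −0.34 (limma adjusted p = 0.407), and it had no base covered in all 24 libraries. Near Col1a2, a collagen gene, the difference was −0.74 (limma adjusted p = 0.0304). Near Ncam1, a cell adhesion gene of embryonic muscle, it was −0.54 (limma adjusted p = 0.0474). The widest single peak gave −0.66 near Col1a2 (limma adjusted p = 0.125) and −0.52 near Ncam1 (limma adjusted p = 0.0646). The other regions near Ncam1 gave −0.33 and −0.09 and were not called. Without litter 2 none of the 8 called regions linked to listed genes stayed called, with limma adjusted p from 0.0538 to 0.135. The region near Des was not called, with a range of 912 to 1865 bp in the adult and 271 to 1633 bp at E18.5 (0.94, limma adjusted p = 0.132).

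No distal region passed the test between slow-biased and fast-biased muscles. In limma fits within each stage, 0 distal regions passed in either direction in the adult or at E18.5, as did 0.0% of all 18301 regions. At an unadjusted p under 0.05, 128 distal regions (3.48%) were wider in slow-biased and 204 (5.54%) in fast-biased adult muscles, beside 2.76% and 4.42% of all regions. At E18.5 the counts were 53 (1.44%) and 99 (2.69%), beside 1.43% and 1.93%. The test of whether the difference between muscle kinds changed with stage called 0 distal regions, with 347 (9.43%) at an unadjusted p under 0.05, beside 6.75% of all regions. What size of difference these fits could detect was not simulated.

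Over all regions of the leading host genes 5 (4.95%) were wider in the adult and 3 (2.97%) at E18.5, beside 4.51% and 2.91% of all distal regions and 3.35% and 3.15% of all regions tested. Of 12 regions in Gse1, 2 were wider in the adult and 0 at E18.5, as for 2 and 0 of 9 in Tns1 and 1 and 0 of 6 in Ablim1. Nav1, Auts2 and Maml3 each had 1 region wider at E18.5 and 0 in the adult. None of the regions in Arhgap26, Cuedc1, Akap6, Dab2ip, Frmd4a, Gm38510 or Pde4d was called.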

How the data were processed

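ATAC-seq peaks of 24 libraries (4 muscles of 3 adult mice and 3 E18.5 litters) were analysed. The authors deposited 1 list per library with the start and end of each peak (mm10, no score), in which replicates were not pooled. The submitters' processing notes name MACS2 2.1.1, Bowtie2 2.4.4, bedtools 2.25.0, Picard, SAMtools 1.14.0, Trimmomatic 0.39.0 and FastQC 0.11.5. The sources used here give neither thresholds nor the order of the lists. How widely a peak is drawn depends on depth and caller settings, so covered widths carry both.

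Touching or overlapping peaks were merged in Python 3.11.15, which gave as many regions (930761) as bedtools 2.31.1. An overlap of 1 bp with a peak counted as a call. Distances used all 49943 RefSeq genes. Covered widths were log2 transformed, centred on the library median over 18301 regions and averaged per animal or litter. They were fitted with limma 3.58.1 (R 4.3.3, trended empirical Bayes) and adjusted over all 18301 regions by Benjamini-Hochberg. Slow-biased and fast-biased means were compared within a stage, 3 against 3. Single values were tested by exact permutation. Animals and litters are separate, and the 4 muscles of one share it.

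The fit was tested on simulated widths with the same spread in every region. Deviations from group means correlated between slow-biased and fast-biased means of the same animal at 0.11, 0.085 and 0.046 in adults, and of the same litter at 0.34, 0.069 and 0.22 at E18.5. Per the labels the same number is the same animal or litter, so the numbers pair the samples.

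Named were the genes that hold the most distal regions, listed genes (240 names, all matched), the 10 widest, 5 narrowest and 5 farthest regions, the 3 largest chains, regions nearest to 10 kb, and up to 10 regions a direction past the threshold with stage means that do not overlap. Some genes that the rule names are not reported here. The regions, lists and rules were chosen with earlier results of these data known. No genome of mm10 was used here, so sequences come from the RefSeq promoter table in place of peak centres.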

Additional observations from a re-analysis of the deposited data

Results flagged for a closer look

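One library stood apart from the others of its group in the ratio of distal to gene-end width. In adult soleus 2 the log2 ratio was −0.0765, while the other 5 adult libraries of slow-biased muscles lay between −0.28 and −0.22. Its gap to the nearest of these was 0.683 of the whole range of the group. Chance flags about 1 in 20 groups, and 1 of the 20 groups of 6 libraries looked at held such a library. The same library missed the most distal regions called in 23 libraries (328). Without the 3 adult soleus libraries 197 distal regions were wider in the adult and 94 at E18.5. The shares of all regions called in that fit are not given here.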

How the results depend on the processing

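The peak lists carry no score or read count, so a stricter peak threshold could not be tried, and widths cannot be set against depth. The number of distal constitutive regions was 1781 at a limit of 25 kb, 278 where peaks had to cover 50% of a region, 5932 with at least 23 libraries and 2391 with 1 bp covered in every library. Their share of constitutive regions was 23.3% with protein-coding and lncRNA genes only, 28.2% at 5 kb, 9.73% at 25 kb, 9.43% with the 50% cover, 24.5% with 23 libraries and 16.4% with the shared base, and 20.5 to 22.8% with an animal or litter left out. The share inside genes was 53.5% with protein-coding and lncRNA genes only, 48.9% with the 50% cover and 53.4 to 59.7% with an animal or litter left out.

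The log2 ratio of distal to gene-end width was −0.26 to −0.23 with an animal or litter left out, where 5 values allow no exact permutation p under 0.0625. Distal regions wider in the adult numbered 47 among regions with 1 peak in every library, 79 without centring, 379 with 12 against 12 libraries and the animal or litter as a random block, and 19 to 119 with an animal or litter left out. Those wider at E18.5 numbered 28, 319 and 202 in the same order, 165 when centred on distal regions, and 8 to 73. The fewer regions tested with 1 peak in every library are part of that setting. For the other settings the cause was not tested. The shares of all regions called under these settings are not given here. In the fits with an animal or litter left out, 18 to 90 of the 166 regions and 8 to 55 of the 107 stayed called. All kept their direction, but this was fixed in advance, since the adult and litter means of every called region did not overlap.

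With the animal or litter as a replicate block, slow-biased against fast-biased muscles gave 0 distal regions in each direction at both stages, and this pairing changed no call. The log2 width ratio and its stage difference kept their sign under all settings tried, and the distance to the nearest constitutive region stayed within 1.5 times its main value. The balance of stage calls turned to more regions wider at E18.5 without centring and with centring on distal regions, and 1 called region, in Nfatc2, changed direction for the widest single peak.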
